A study of Mus musculus with 4 samples.

Results

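Rag1, Rag2 and Dntt encode the proteins that are particular to V(D)J recombination, and E2A binding at them was read from peak lists of L-DKO DP and iNKT thymocytes. A peak was taken as a member when its midpoint lay in the body of one of these genes or within 200 kb of it on the mm9 assembly, without regard to its score. This rule found 24 of the 17532 DP peaks, 16 at Rag1 and Rag2, which share a window, and 8 at Dntt. It found none of the 1516 iNKT peaks. The L-DKO mice carried floxed alleles of Id2 and of Id3 (f/f for both) with LckCre, a Cre under the Lck promoter that removes these E protein inhibitors in the T lineage. The mice were 3 to 5 weeks old, on a C57BL/6 or a mixed C57BL/6 and 129 background. DP cells were sorted as CD1dTet- CD4+ CD8+ and iNKT cells as CD1dTet+ TCRβ+, and both populations lack Id2 and Id3, so no group with Id proteins enters these comparisons. Each of the 2 cell types gave 1 E2A library and 1 input library from cells pooled over several mice. There is therefore no replicate error, no test between the cell types was made, and intervals cover counting error only. Peak lists carry no RNA, so the sorted populations could not be checked against their marker genes.

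RAG1 and RAG2 form the recombinase that cuts DNA at the recombination signal sequences beside V, D and J segments. Dntt encodes TdT, the polymerase that adds bases without a template at the joints. DP thymocytes rearrange the TCRα locus with the recombinase, and Rag transcription is normally switched off after selection of the receptor, a step that iNKT cells have passed. Loss of Id genes, as in all cells here, is known to prolong Rag expression, which was not measured in these lists. Rag transcription in lymphocytes is known to need elements far from the promoters, including an anti-silencer element far upstream of Rag2 that acts in thymocytes and the enhancer Erag, which acts in the B lineage. E proteins such as E2A bind E-boxes, CANNTG, and favour CAGGTG and CAGCTG.

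The sequences below show some of the E-boxes of the peaks that are described next, read from the plus strand of mm9 in windows clear of annotated exons. Capitals mark CAGGTG, its reverse complement CACCTG, and CAGCTG. The first pair comes from the strongest distal peak of Rag2, the next group from the peak over the Rag1 promoter.
Rag2 distal peak, chr2:101391525-101391716: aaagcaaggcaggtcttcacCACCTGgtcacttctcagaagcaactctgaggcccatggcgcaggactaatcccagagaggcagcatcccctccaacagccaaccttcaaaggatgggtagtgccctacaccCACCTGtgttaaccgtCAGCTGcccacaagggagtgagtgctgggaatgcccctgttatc
Rag2 distal peak, chr2:101392627-101392726: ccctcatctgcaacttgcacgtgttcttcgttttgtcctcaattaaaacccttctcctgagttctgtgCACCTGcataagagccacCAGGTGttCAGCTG
Rag1 promoter peak, chr2:101489772-101489871: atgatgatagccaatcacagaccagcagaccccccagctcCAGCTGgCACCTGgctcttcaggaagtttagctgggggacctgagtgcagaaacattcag
Rag1 promoter peak, chr2:101490183-101490282: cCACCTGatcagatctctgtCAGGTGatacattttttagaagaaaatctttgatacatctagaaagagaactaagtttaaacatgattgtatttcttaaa
Rag1 promoter peak, chr2:101490786-101490885: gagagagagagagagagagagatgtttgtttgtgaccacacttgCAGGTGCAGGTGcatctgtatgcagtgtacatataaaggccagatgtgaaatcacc

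At Dntt, the windows shown are those clear of exons with the most CAGGTG in the peak upstream of the gene, in the peak over its transcription start site (TSS) and in the strong intronic peak. The last line gives the 100 bases before the Rag2 TSS, which are shown because the peak there holds neither core.
Dntt upstream peak, chr19:41095714-41095813: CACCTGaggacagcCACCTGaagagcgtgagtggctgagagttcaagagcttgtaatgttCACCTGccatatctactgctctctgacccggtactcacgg
Dntt TSS peak, chr19:41103265-41103364: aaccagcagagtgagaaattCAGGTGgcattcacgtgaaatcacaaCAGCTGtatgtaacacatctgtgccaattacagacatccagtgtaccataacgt
Dntt intronic peak, chr19:41113005-41113104: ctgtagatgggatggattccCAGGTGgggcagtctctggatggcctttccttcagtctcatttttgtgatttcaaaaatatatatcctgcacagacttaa
Rag2 promoter, chr2:101464775-101464874: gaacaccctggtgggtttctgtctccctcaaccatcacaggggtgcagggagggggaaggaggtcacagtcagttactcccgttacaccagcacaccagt

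The MACS score of a peak is 10 times the negative log10 of its p-value against input, and a rank is its place by score in its own list. The read depth of the libraries is not in the lists, and the score and the number of peaks both grow with depth. Where scores of the DP and iNKT lists are given for the same site, they are therefore not to be compared as amounts. In the DP list the median score was 141. A score of exactly 3100 was shared by 258 peaks, all of rank 27, and 26 were above it. Scores pile up at this value, so those that share it have no order among themselves, and a tie there does not show that binding was equal.

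On chromosome 2, Rag2 occupies the plus strand from 101464875 to 101472685, and Rag1 on the minus strand from 101478439 to 101489658. They are transcribed toward each other with 5.75 kb between their 3′ ends. The 16 DP peaks spread over both flanks, with 9 on the upstream side of Rag2, 3 within the span of the gene pair and 4 on the upstream side of Rag1. Their scores ran from 54.8 to 3100 with a median of 363. Of the 16, 12 scored 100 or more and 6 scored 500 or more, against 19.1% of the whole DP list at 500 or more.

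The Rag1 promoter held one of the highest scores of the list. The peak from 101488930 to 101491556 covered the Rag1 TSS, with its midpoint 0.58 kb upstream, and had a score of 3100. It was 2627 bp wide and ranked 469 by width. It also covered the first TSS of B230118H07Rik, a gene that overlaps Rag1 and Rag2 on the minus strand, so the binding cannot be given to either promoter alone. A DP peak covered the TSS of 9.36% of the 22350 protein-coding genes. Only 25 of them, or 0.112%, had a score of 3100 or more at that place, a count in which Rag1 and B230118H07Rik share 1 peak. A second peak, from 101487963 to 101488927 in the intron of Rag1, ended 2 bp short of it and had a score of 108.

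The Rag2 promoter was bound as well, at a lower score. The peak from 101464252 to 101465668 had its midpoint 0.09 kb downstream of the Rag2 TSS, in the non-coding first exon, with a score of 622 and rank 2736. A score of at least this size over the TSS was found at 197 protein-coding genes, or 0.881%. Upstream, the peak from 101460165 to 101462181 lay 3.70 kb before the Rag2 TSS with a score of 273, and it covered an internal TSS of B230118H07Rik. Between the 3′ ends of the gene pair, the peak from 101476979 to 101477959 had a score of 103. The promoters of both recombinase genes thus had peaks, and the 2 peaks between them, in the intron of Rag1 and between the 3′ ends, were low.

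The distal peaks of Rag2 included one with the same score as the Rag1 promoter peak. This peak, from 101389966 to 101394198, had its midpoint 72.8 kb upstream of the Rag2 TSS and 97.6 kb downstream of the Rag1 TSS. It scored 3100, and its width of 4233 bp ranked 58 among the 17532 DP peaks. It lay between genes, beyond the 3′ end of B230118H07Rik. The anti-silencer element is known to lie at about this distance upstream of Rag2, but its coordinates are not in the files used here and the peak was not matched to it.

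Between this peak and Rag2, 5 more DP peaks fell in introns of B230118H07Rik. Those at 61.4 and 43.2 kb upstream of Rag2, from 101402747 to 101404286 and from 101420998 to 101422409, had scores of 745 and 744. The peak from 101440466 to 101441397, 23.9 kb upstream, scored 339. The peak from 101448244 to 101449397, 16.1 kb upstream, scored 587. The peak nearest to the gene in this group, 8.52 kb upstream, had the lowest score of the locus, 54.8, close to the calling threshold of 50. The scores of these elements did not fall with distance from Rag2 in any simple order, since the 2 farthest were higher than the 3 nearer ones.

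Past the strong distal peak, 2 low peaks lay 82.0 and 107 kb upstream of Rag2, with scores of 60.9 and 56.5. No further DP peak was found on that side until 2958 kb from Rag2, where a peak scored 135. The empty stretch, from 98507862 to 101357414, was 2.85 Mb long and held no whole protein-coding gene and no iNKT peak. It ranked 162 among the 17512 distances between neighbouring DP peaks, whose median was 19.2 kb. On the Rag1 side, the peak from 101505445 to 101506291 was 16.2 kb upstream of the Rag1 TSS and scored 386, and it lay nearer to the TSS of Traf6, a signal adaptor. A peak in an intron of Traf6, with its midpoint 0.71 kb past the Traf6 TSS, scored 57.6. The farthest member on the Rag1 side, in an intron of Prr5l, lay 106 kb from Rag1 and scored 451, and the next peak beyond it, outside the window, was 330 kb from the gene with a score of 107.

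**Figure D1:**
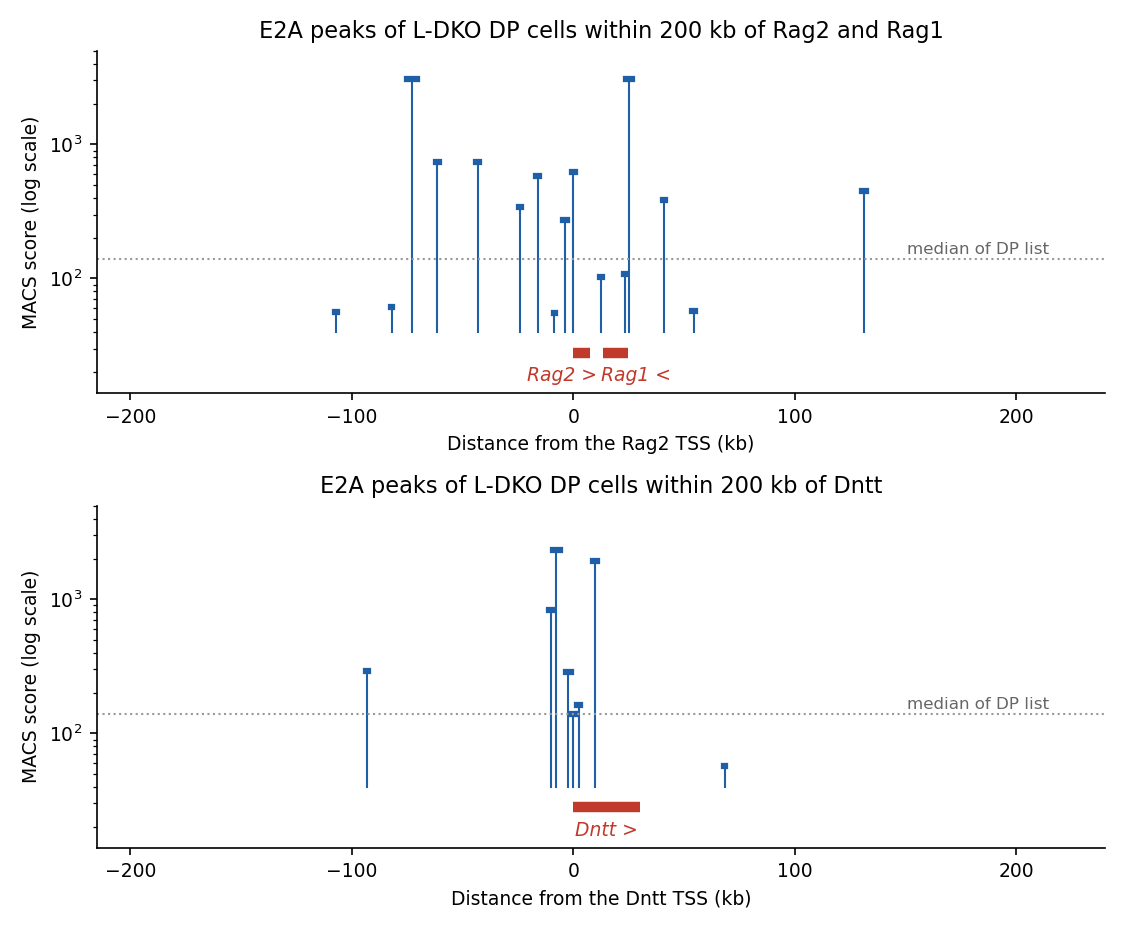
DP peaks within 200 kb of Rag2 and Rag1 (top) and of Dntt (bottom), with the distance from the TSS in kb on the x axis and the MACS score on a log y axis. Each horizontal mark spans 1 peak, stems only join it to the axis, red bars are genes with arrows for strand, and the dotted line is the list's median score of 141. The 2 marks at 3100 are the Rag1 promoter and the peak 72.8 kb upstream of Rag2, and the Dntt peaks gather within about 10 kb of the TSS.

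Dntt had a more compact pattern. On chromosome 19 the gene occupies the plus strand from 41103765 to 41134013, and 6 of its 8 DP peaks had midpoints between 10.05 kb upstream and 9.81 kb downstream of the TSS. The scores of all 8 ran from 57.2 to 2325 with a median of 291, and 3 were 500 or more. The TSS peak was not the strong one. It ran from 41102936 to 41104444 with a score of 140 and rank 8791, close to the middle of the list, although 3.92% of protein-coding genes had a score at least as high over the TSS, since most had no peak there.

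The strongest Dntt peaks stood on either side of the promoter. Upstream, the peak from 41094779 to 41097657 had its midpoint 7.55 kb before the TSS, a score of 2325 and rank 513. A neighbour from 41092998 to 41094430, 10.05 kb upstream and 348 bp away from it, scored 839. In the gene, an intronic peak from 41112608 to 41114548, 9.81 kb downstream of the TSS, scored 1945 and ranked 671. The peaks nearest to the promoter on each side, 2.21 kb upstream and 2.44 kb downstream, had scores of 288 and 164. Among these 6 peaks at Dntt the score was thus lowest at the TSS, whereas the Rag1 TSS peak shared the highest score of its locus with the distal Rag2 peak.

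The remaining 2 Dntt members lay in other genes. A peak in an intron of Blnk, an adaptor of B cell receptor signaling, was 93.1 kb upstream of Dntt with a score of 294, and a peak in an intron of Tll2, 68.4 kb downstream, scored 57.2. The nearest DP peaks outside the window were 219 kb from Dntt on the upstream side, with a score of 271, and 269 kb on the downstream side, with a score of 65.2. Of the protein-coding genes whose TSS lies within 200 kb of Dntt (Ccnj, Zfp518a, Blnk, Opalin and Tll2), none had a DP peak over its TSS. At the Rag genes, B230118H07Rik did and Traf6 did not, although the peak in the Traf6 intron began just past that TSS.

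By number of peaks, a DP peak under this rule was no distinction, since 75.2% of protein-coding genes had at least 1. The median gene had 3 and the upper quartile began at 8. The 16 peaks of Rag1 and of Rag2 were reached by 7.57% of genes and the 8 of Dntt by 28.4%. In the narrower range of the body, 30 kb upstream and 5 kb downstream, Rag1 had 5 peaks, and Rag2 and Dntt had 6 each. Counts of 6 or more were found at 2.81% of genes. By highest score in that range, 1.21% of genes reached the 3100 of Rag1, 2.17% the 2325 of Dntt and 9.66% the 622 of Rag2, whose strong distal peak lies outside it.

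**Figure D2:**
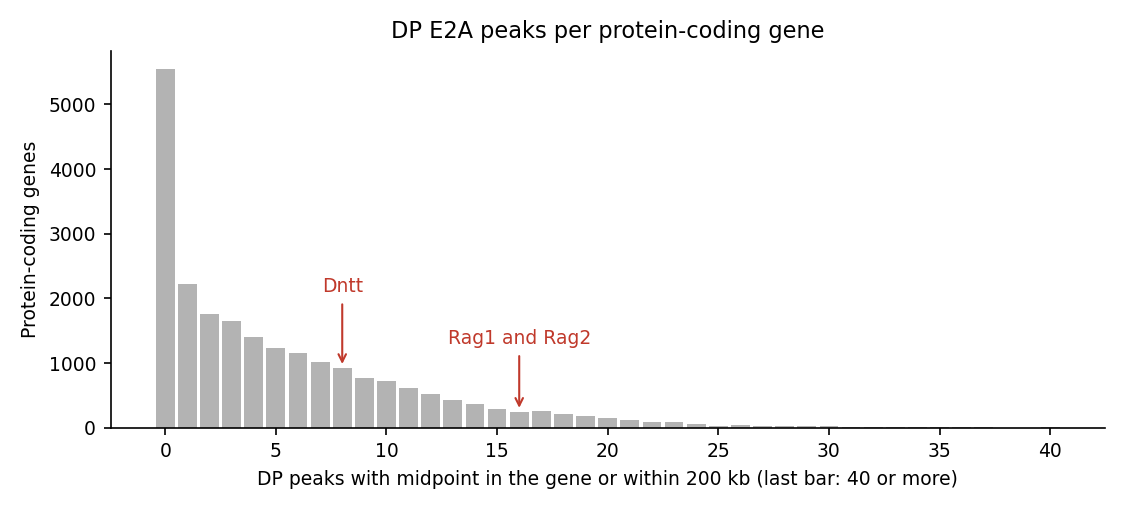
Number of protein-coding genes (y axis) by the number of DP peaks with a midpoint in the gene or within 200 kb of it (x axis, genes with 40 or more in the last bar). Dntt, with 8 peaks, lies at the upper quartile, and Rag1 and Rag2, with 16 each, lie where 7.57% of genes have as many or more.

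No iNKT peak was called at any of the 3 genes, in the body or within 200 kb. The nearest iNKT peak to Rag1 and Rag2, from 101897353 to 101898285, was 408 kb from Rag1, had a score of 57.1 with rank 1181 of 1516, and overlapped a DP peak with a score of 2157. The nearest to Dntt, from 40582407 to 40583612, was 521 kb away with a score of 93.2, and no DP peak overlapped it. An iNKT peak within 200 kb was the exception for genes in general: 27.8% had one and 72.2% had none. Among the 1692 genes with at least 16 DP peaks in the window, 33.7% had no iNKT peak, and among the 6337 genes with at least 8 the share was 46.5%. Of the 1581 genes with a DP peak of 3100 or more within 200 kb, 22.4% had no iNKT peak there. Of the 25 with such a score over the TSS, 6 had none, or 24%, and these include Rag1 and B230118H07Rik. The empty iNKT windows at Rag1, Rag2 and Dntt are therefore shared with many genes.

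Peak by peak, 0 of the 24 DP members overlapped an iNKT peak by at least 1 bp, which allows a share of up to 12.5%, and over the whole DP list 5.99% did. The share in the list rose with the DP score. It was 0.823% for scores of 50 to 75 (95% Wilson interval 0.592 to 1.14), 9.83% for 500 to 1000 (8.50 to 11.3), 42.8% for 2000 to 3100 (37.8 to 48.0) and 58.8% for 3100 or more (53.0 to 64.4). Of the 258 peaks with a score of exactly 3100, 152 overlapped an iNKT peak, and the Rag1 promoter and the distal Rag2 peak were among the others. Among the 9 members with a score of 500 or more the overlap was 0, which allows up to 33.3%, against 20.8% (19.5 to 22.2) of the 3357 DP peaks of that range. These limits treat the peaks as independent, though they are neighbours at the Rag and Dntt loci from 1 library per cell type. Of the 9, 5 scored from 500 to 1000, 1 from 1000 to 2000, 1 from 2000 to 3100 and 2 at 3100 or more. The 20.8% is thus not matched to their scores, and whether the count of 0 differs from the list was not tested. The iNKT list is shorter and of unknown depth, so a site without a peak may have been below detection, and a difference in binding and a difference in depth cannot be told apart.

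**Figure D3:**
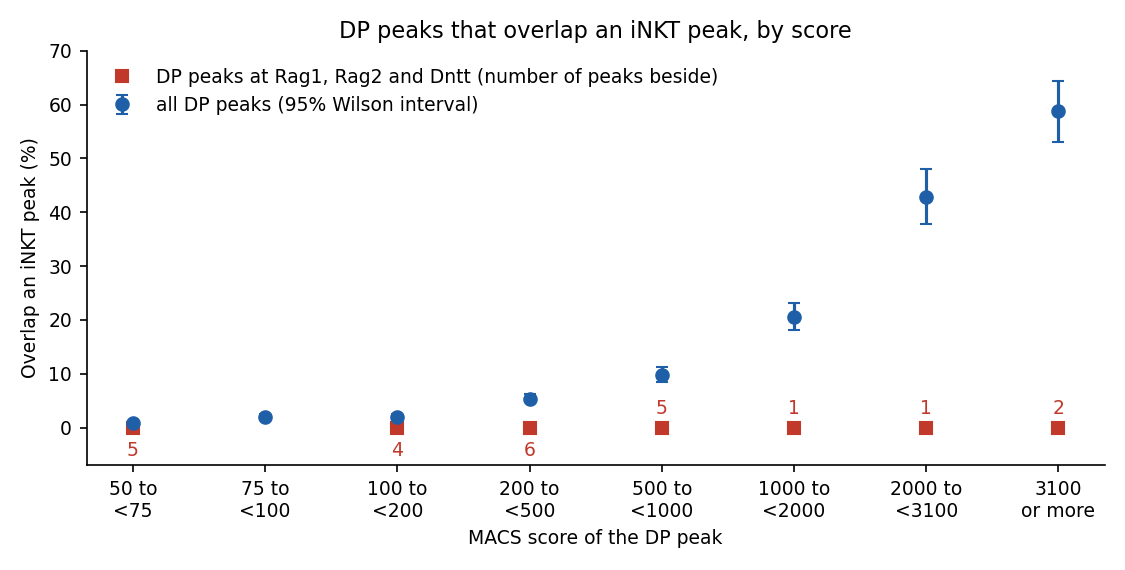
Percent of DP peaks that share at least 1 bp with an iNKT peak (y axis) by MACS score of the DP peak (x axis, 8 ranges of unequal width). Circles with 95% Wilson intervals are all DP peaks and rise from 0.823% to 58.8%, and squares, with the number of peaks beside each, are the 24 peaks at Rag1, Rag2 and Dntt, of which 0 overlapped one.

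E-box cores were counted on both strands in the member peaks, in 200 bp at the midpoint and over the whole peak. In the 200 bp, CAGGTG was found in 9 of 24, or 37.5% (95% Wilson interval 21.2 to 57.3), with 8 of the 16 Rag peaks and 1 of the 8 Dntt peaks. The share over the DP list was 43.9%. Over the whole peak the numbers were 18 of 24, or 75% (55.1 to 88.0), against 79.0% of the list. CAGCTG was found in 3 of 24 midpoint windows, or 12.5% (4.34 to 31.0), against 29.0% of the list, and in 19 of 24 whole peaks, or 79.2% (59.5 to 90.8), against 63.4%. By length, the Rag peaks held 1.06 CAGGTG per kb and the Dntt peaks 1.26, against 1.62 in all DP peaks and 0.682 in the genome. For CAGCTG the densities were 0.679 per kb in the Rag peaks and 1.03 in the Dntt peaks, against 1.05 and 0.395. All 4 shares of the list lay within the intervals of the members, which treat neighbouring peaks of the same locus as independent. The densities have no interval, and all lay below those of all DP peaks and above those of the genome. Whether the members differ from the list in E-boxes was not tested. The member peaks were wider, with a median of 1250.5 bp at Rag and 1591.5 bp at Dntt against 984 bp in the list, so more sequence was searched in a whole member peak. The midpoint of a wide peak need not be near its E-boxes.

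The strong peaks differed in how their E-boxes were placed. The distal Rag2 peak held 5 CAGGTG and 4 CAGCTG, none within 100 bp of its midpoint. As printed above, 3 of these 9 stood at 101392695 to 101392726, on the side of the peak that faces Rag2. The rest, including the other printed group, lay on the side of the midpoint away from Rag2. The Rag1 promoter peak also held 5 CAGGTG, and its E-box nearest to the TSS was CAGCTG at 101489812 to 101489817, 1 base apart from a CACCTG. The pair of CAGGTG that begins at 101490830 is joined without a base between, 1.17 kb upstream of the TSS. In the upstream Dntt peak, 5 CAGGTG and 3 CAGCTG were found, with 3 CACCTG within the 100 bases shown. The Dntt TSS peak, at a score of 140, held 3 CAGGTG and 2 CAGCTG, and the intronic Dntt peak, at 1945, held 2 and 3, so both had 5 cores.

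The Rag2 promoter peak held neither CAGGTG nor CAGCTG in its 1417 bp. It had 5 CANNTG of any kind, a pattern that includes both cores, or 3.53 per kb, against 6.98 per kb over all DP peaks. Of the 24 members, 3 had neither core over their whole length, and the other two scored 54.8 and 103. Over the DP list 8.09% of peaks had neither, and among the 3357 with a score of 500 or more 39 did, or 1.16%. Among the 1894 DP peaks over the TSS of a protein-coding gene the share was 10.7%, above that of the list. This peak was singled out after its values were seen, and no match says only that these letters are not in this window.

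**Figure D4:**
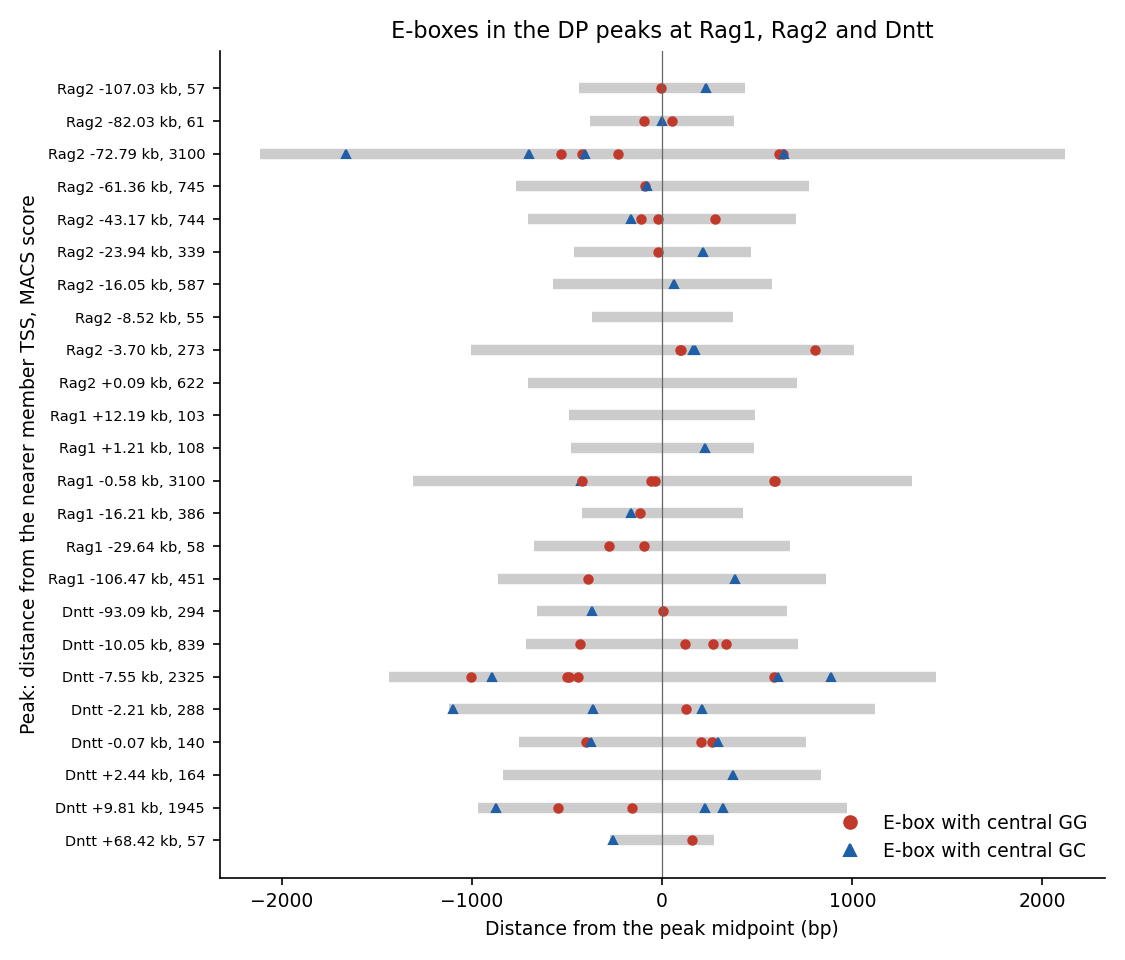
E-boxes in the 24 DP peaks at Rag1, Rag2 and Dntt, with the distance from the peak midpoint in bp on the x axis and 1 row per peak, named by its distance from the nearer TSS and its MACS score. Grey bars span the peaks, circles are E-boxes with a central GG and triangles those with a central GC. The peak over the Rag2 TSS (score 622) has neither, and the widest peak, 72.8 kb upstream of Rag2, has 9, all away from its midpoint.

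Cores of factors that act beside E proteins in thymocytes were searched on both strands, in the same 200 bp at the midpoint and over the whole peak. ACCACA, the Runx core, was found in 6 of 24 midpoint windows, or 25.0%, against 23.8%. The peak 43.2 kb upstream of Rag2 had 3 of them within its 200 bp. TCAAAG, the core of Tcf7 and Lef1, was found in 3 of 24, or 12.5%, against 17.4%, and TTATCT, the Gata3 core, in 2 of 24, or 8.33%, against 8.87%. Over the whole peak, TTATCT was found in 15 of 24, or 62.5% (95% Wilson interval 42.7 to 78.8), against 40.1% of the list, which lay below that interval. The member peaks are wider than those of the list, and an effect of width on this share was not tested. ACCACA and TCAAAG were found in 62.5% and 58.3% of whole member peaks, against 63.5% and 55.6%. The peak 3.70 kb upstream of Rag2 differed from the rest by its 16 TCAAAG, where the median DP peak held 1. It was the single peak of the DP list with as many, or 0.00570% of it. Of these, 14 lay in a tandem array of 274 bp from 101460501 to 101460774, in steps of 16 to 24 bases, of which 9 were exactly 20. The start of this array, whose peak was chosen after its values were seen, is given here with TCAAAG in capitals.
Rag2 upstream peak, chr2:101460491-101460640: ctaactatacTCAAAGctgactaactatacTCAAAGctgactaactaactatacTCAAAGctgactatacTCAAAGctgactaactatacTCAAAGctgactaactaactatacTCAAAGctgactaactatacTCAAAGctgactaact

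The other genes of the reaction were read from a mixed list of 12, of factors that open and join the cut ends, cofactors of the recombinase and a kinase that responds to the breaks, in the gene body and the same 30 kb before and 5 kb after it. Of the 12, 7 had a DP peak, against 39.2% of all protein-coding genes, and 3 had an iNKT peak, against 5.73%. The median of the highest DP score was 481 over the list and 0 over all genes, with genes without a peak at 0. The list's genes were longer, with a median of 46126 bp against 15428 bp, which widens the range searched. Poll, a polymerase of the joining step, had a DP peak of 3100 over its TSS, which it shares with Dpcd, from 45633723 to 45635961 on chromosome 19, and no iNKT peak. Polm, its relative, had 951 over the TSS and 1654 at 13.3 kb upstream, and no iNKT peak.

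Dclre1c, which encodes Artemis, the nuclease that opens the hairpin ends, was bound over its TSS in both lists. On chromosome 2, its DP peak spanned 3340254 to 3342797 and scored 2535, and the iNKT peak from 3340718 to 3342051 had 52.2 with rank 1392. At Lig4, the ligase of the last step, a DP peak on chromosome 8 that spanned 9974380 to 9976824 scored 2112 and the overlapping iNKT peak from 9974857 to 9975796 scored 220 with rank 176. Xrcc6, which encodes Ku70, had a DP peak of 3100 inside the gene, 40.8 kb past its first TSS and over that of a shorter transcript, which overlapped an iNKT peak of 213, and both also lie in Pppde2. Hmgb1, a cofactor of the recombinase, had a DP peak of 872 at 26.9 kb upstream, and Atm, a kinase that responds to the breaks, one of 90.4 over a TSS shared with Npat. Xrcc5, Prkdc, Xrcc4, Nhej1 and Hmgb2 had no peak of either list in this range. Joining genes with an iNKT peak were thus found, and the recombinase genes and Dntt had none. With 1 library a cell type this contrast was not tested.

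Factors known to act on Rag transcription formed a second list of 10. All 10 had a DP peak in that range, against 39.2% of all protein-coding genes, and 2 had an iNKT peak, against 5.73%. The median of their highest DP scores was 402, where that over all genes was 0. Their median length was 92514 bp, so that more peaks could fall in them. Ikzf1 (Ikaros) had the highest, an intronic DP peak of 2345 at 41.1 kb past the TSS that overlapped an iNKT peak, and its highest iNKT peak scored 146. Runx1 had 14 DP peaks with a highest score of 1790, and Satb1, a chromatin organizer, had 763 over its TSS, with no iNKT peak at either. Foxo1 and Foxp1, forkhead activators of Rag, had 8 and 9 DP peaks with highest scores of 168 and 311. That of Foxp1 lay 17.1 kb upstream of its TSS, in an intron of Eif4e3. The repressor genes Gfi1b and Zfp608 had highest scores of 589 and 281, and Myb had 151. Among the E protein genes, Tcf12, which encodes HEB, had a DP peak of 493 that overlapped an iNKT peak of 51.3, and Tcf3, which encodes E2A, had a single DP peak of 72.4.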

How the data were processed

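E2A ChIP-Seq peak lists of L-DKO DP and iNKT thymocytes were used, 1 per cell type. For alignment to mm9 the authors used Bowtie 1.1.2 and retained uniquely placed reads only, which under-represents repeats, and MACS 1.4.2 with default parameters for peaks against input. Each deposited score equals −10 log10 of the p-value from MACS. Reads, inputs and coverage were not analysed here, and depth is unknown.

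Genes and TSS came from GENCODE M1 on NCBIM37, the same assembly as mm9, and all peaks fitted its chromosome lengths. Start positions were counted from 1. Overlap meant at least 1 bp, motif windows were 200 bp, and shares have 95% Wilson intervals; an upper limit for a share of 0 is 3 counts of the total. The members and lists were chosen with earlier results of these data known. Named were Rag1, Rag2 and Dntt with their peaks, genes whose TSS lies within 200 kb, and list genes. Prr5l, Dpcd, Npat, Pppde2 and Eif4e3 only place peaks. Alternatives were the window, a minimum score of 100 or 200, the overlap rule, the motif window and the gene types. Simulated data tested the functions for windows, ranks, overlap and motifs (7 of 7 answers recovered), and not the others. Python 3.11.15 and matplotlib 3.10.9 were used.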

Additional observations from a re-analysis of the deposited data

How the results depend on the processing

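Of 33 alternative values of 8 results, 22 stayed within 1.5 times a count or within the interval of a share, and 11 moved. None of these results has a direction. With a window of 500 kb, the Rag genes had 36 DP peaks and 1 iNKT peak and Dntt had 14 DP peaks, and the overlap between the lists became 1 for DP and 1 for iNKT peaks, by construction of a wider window. At Dntt the iNKT count was 0 under every window and minimum tried. With a minimum score of 200, the DP counts were 10 and 5, also by construction. The share of members with CAGGTG was 75% over the whole peak and 20.8% in 100 bp at the midpoint, as the length searched sets. The share of genes with a DP peak, 75.2% by the main rule, became 69.2% with all annotated genes and 65.1% with a window of 100 kb. No paired analysis was possible because each cell type has 1 E2A library. The unknown depth of both libraries limits every statement on a site without an iNKT peak.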
